A study of Caenorhabditis elegans with 6 samples.

Results

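The cathepsin B and L cysteine proteases of Caenorhabditis elegans were followed in worms carrying atfs-1(et18) and in the wild-type strain N2. Members were all probe sets that the platform annotation assigns to 1 gene named cpr- with a number, or to cpl-1. This gave 11 probe sets of 9 genes, among 22548 probe sets and 17138 genes with an annotated symbol on the array. The genes are cpr-1, cpr-2, cpr-3, cpr-4, cpr-5, cpr-6, cpr-8, cpr-9 and cpl-1. The family was chosen by the measured genotype changes of cpr-1 and cpr-4, known to be among the strongly lowered genes of this comparison, so the genotype differences of its members are given as a description, with no p-value.

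RNA came from whole animals at the fourth larval stage (L4), 3 biological replicates of atfs-1(et18) and 3 of wild-type N2. Both genotypes had been synchronised by bleaching and grown on solid medium with the E. coli strain OP50 as food. ATFS-1 is a bZIP protein that switches on nuclear genes when mitochondria fail to import it, and et18 is known as a gain-of-function allele. RNA of all tissues was pooled in each sample, so that fewer cells of a type and less RNA per cell cannot be told apart in any value below.

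Cathepsins B and L belong to the papain family, in which a cysteine and a histidine form the catalytic pair. They are made as inactive precursors, lose an inhibitory propeptide in acidic compartments, and are held in check by cystatins. In the worm several of them are made in the intestine, where they digest food protein and take part in lysosomal turnover. Cathepsin L, encoded by cpl-1, is known for its part in yolk processing, embryogenesis and the moult.

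Signals were MAS5 values on a linear scale, with array medians between 110.8 and 137.2. Across the 13792 probe sets that passed the filter, arrays of the same genotype correlated at 0.937 to 0.973 and arrays of different genotypes at 0.895 to 0.941. The transcript of atfs-1 had signals of 346, 355 and 289 in atfs-1(et18) worms, against 207, 284 and 277 in wild-type worms, and its difference did not pass the threshold (log2 change 0.38 ± 0.20 SE, limma adjusted p = 0.400). Because et18 is a point mutation, this level does not check the labels. Markers of intestine, germline, oocytes, sperm, epidermis, muscle, pharynx and neurons each included probe sets above the 40th percentile on every array. The neuron gene unc-31 was above it on no array, and the sperm gene spe-38 on 1 mutant and 0 wild-type arrays. The summed signal of the 4 pharynx marker genes was lowest on atfs-1(et18) replicate 2, at 367.4, against 1570 to 7139 on the other 5 arrays. It was highest on wild-type replicate 1, at 7139, followed by 2922.5 on atfs-1(et18) replicate 3.

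**Figure D1:**
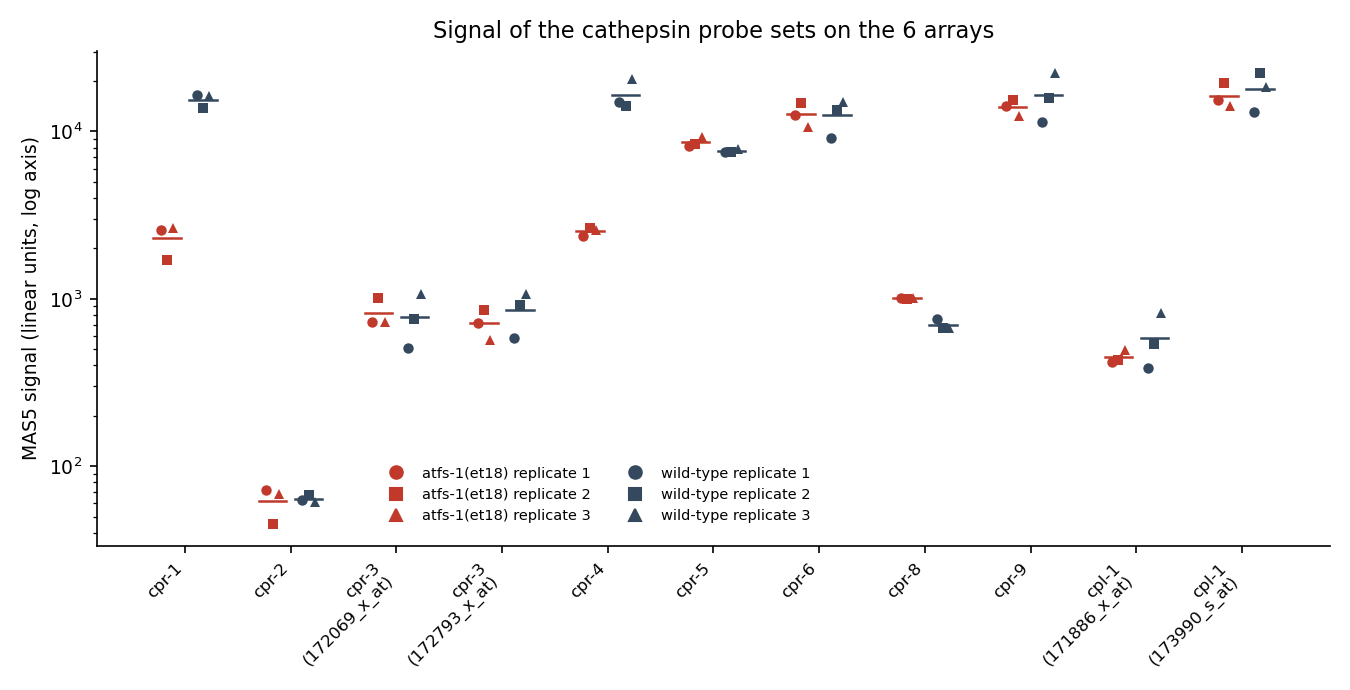
MAS5 signal (linear units on a log axis) of the 11 cathepsin probe sets on each array, with atfs-1(et18) in red and wild-type in dark blue, marker shape for the replicate and a bar at the mean. For cpr-1 and cpr-4 the 3 mutant arrays lay at 1711 to 2644, against 13717 to 20617 in wild-type, and the 2 genotypes are close or overlapping for the other probe sets.

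In atfs-1(et18) worms, cpr-1 and cpr-4 had about 15% of the wild-type signal, while the other cathepsins stayed within 2-fold of it or could not be measured. Of 10 probe sets tested, 2 passed the threshold as lower and 0 as higher (limma, Benjamini-Hochberg adjusted p under 0.05), where 1.30% of all probe sets tested passed as lower and 2.63% as higher. At an unadjusted p under 0.05 there were 3. The share of all probe sets at that unadjusted level is not given, so such counts, here and below, are not read as an excess. The median log2 change of the 10 was -0.15, and -0.04 without cpr-1 and cpr-4, beside -0.008 over all probe sets tested. Because the choice of the family used this comparison, nothing is read from these counts.

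The gene cpr-1 (C52E4.1) encodes a cathepsin B-like protease known from the gut. Its signals were 2585, 1711 and 2630 in atfs-1(et18) worms, against 16436, 13717 and 16245 in wild-type worms. The lowest wild-type array was 5.22-fold above the highest mutant array. The means were 2309 ± 518 in atfs-1(et18) and 15466 ± 1518 in wild-type (SD, n = 3 each), which left 14.9% of the wild-type mean. On the log2 scale cpr-1 fell by 2.77 (SE 0.19), a 6.80-fold fall with a 95% interval of 5.04- to 9.18-fold. Replicate 2 of the mutant was the lowest of the 6 arrays, and without it the log2 change was -2.56.

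The gene cpr-4 (F44C4.3), whose cathepsin B-like product is known to be secreted after irradiation of worms, fell by nearly the same factor. Signals of 2372, 2644 and 2579 in atfs-1(et18) worms stood against 14964, 14227 and 20617 in wild-type worms. Here the lowest wild-type array was 5.38-fold above the highest mutant array. The means were 2532 ± 142.3 in the mutant and 16602 ± 3496 in wild-type (SD, n = 3 each), which left 15.2%. On the log2 scale cpr-4 fell by 2.69 (SE 0.17), or 6.47-fold with a 95% interval of 4.98- to 8.42-fold. In the mutant the 3 arrays of cpr-4 lay close together, with a coefficient of variation of 5.62%, against 22.4% for cpr-1. In wild-type it was the reverse, 21.1% for cpr-4 and 9.81% for cpr-1.

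Both genes are measured by probe sets without the suffix that marks binding to several transcripts. Over the 17 alternative settings the log2 changes ran from -2.87 to -2.56 for cpr-1 and from -2.80 to -2.53 for cpr-4. These settings use the same arrays that chose the family, so the ranges describe the processing and support nothing further. Without atfs-1(et18) replicate 2, the array with the lowest pharynx signals, the change of cpr-4 was -2.73. Without wild-type replicate 1, the array with the highest, the changes were -2.72 for cpr-1 and -2.76 for cpr-4.

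**Figure D2:**
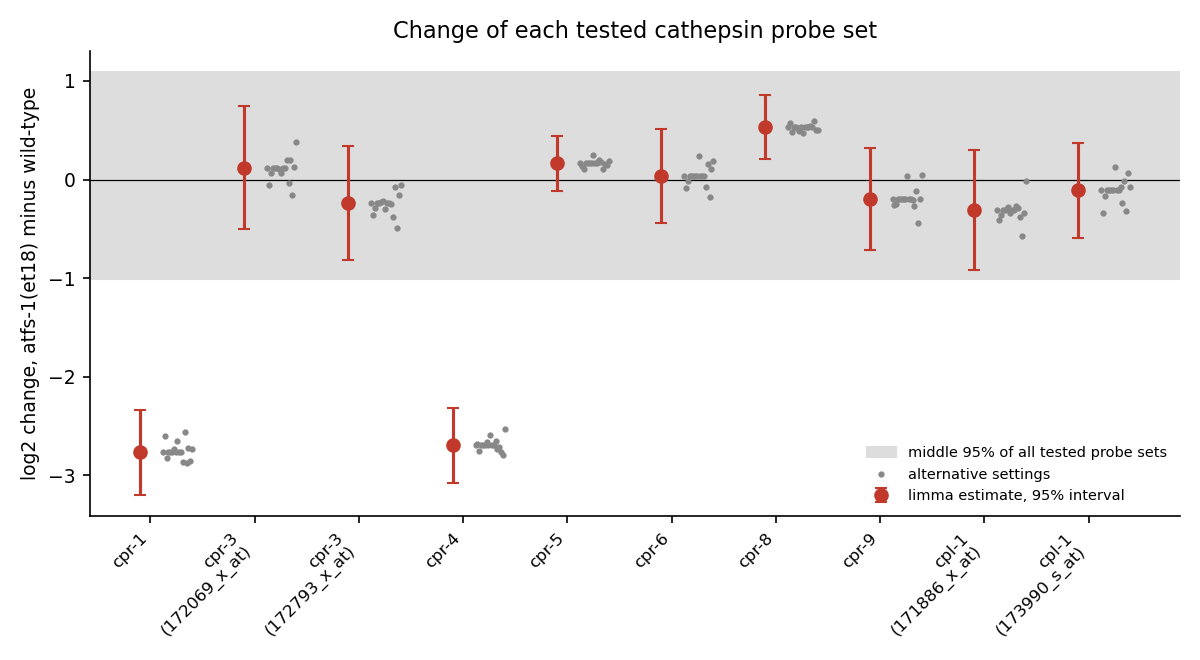
Log2 change, atfs-1(et18) minus wild-type, of the 10 cathepsin probe sets tested (red points, with 95% intervals from limma), their values under the alternative settings (grey points) and the middle 95% of all probe sets tested (grey band). The points of cpr-1 (-2.77) and cpr-4 (-2.69) lie below the band under every setting plotted, and the other 8 lie inside it.

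None of the other cpr genes tested passed the threshold (limma, 1 at an unadjusted p under 0.05). The gene cpr-6 (C25B8.3) had signals of 12585, 14789 and 10678 in atfs-1(et18) worms, against 9067, 13500 and 14965 in wild-type worms, so the genotypes overlapped, and the log2 change was 0.04 ± 0.21 (SE). The gene cpr-9 (F57F5.1) had 14107, 15303 and 12316 in the mutant, against 11404, 15835 and 22222 in wild-type. All 3 mutant arrays of cpr-9 lay within the wild-type range, with a log2 change of -0.20 ± 0.23.

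For cpr-5 (W07B8.5) the mutant signals were 8130, 8378 and 9264, against 7563, 7509 and 7896 in wild-type, a log2 change of 0.16 ± 0.12. The 2 genotypes did not overlap, but the lowest mutant array was only 1.03-fold above the highest wild-type array, and the change did not pass. This probe set carries the suffix of sets that can bind several transcripts.

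For cpr-8 (W07B8.1) the difference had the opposite sign to those of cpr-1 and cpr-4. The gene had signals of 1015, 1001 and 1008 in atfs-1(et18) worms, against 754, 668 and 671 in wild-type worms, with each mutant array above each wild-type array. Its log2 change of 0.53 ± 0.14 corresponds to 1.45-fold (95% interval 1.15- to 1.81-fold) and did not pass the threshold over all probe sets. It passed in 1 of 17 alternatives, with array weights in the fit, a setting under which 1637 of all probe sets passed, against 542. In all, the arrays of the 2 genotypes did not overlap for 4 of the 10 probe sets, those of cpr-1, cpr-4, cpr-5 and cpr-8, beside 23.3% of all probe sets tested.

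The gene cpr-3 (T10H4.12) is read by a pair of probe sets, both marked as able to bind related transcripts. The first, 172069_x_at, had 723, 1010 and 730 in atfs-1(et18) worms, against 510, 760 and 1073 in wild-type worms. The second, 172793_x_at, had 718, 859 and 569 in the mutant, against 584, 920 and 1064 in wild-type. Their log2 changes of 0.12 ± 0.27 and -0.23 ± 0.25 differ in sign, each within its error, and the genotypes overlapped on both.

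Cathepsin L, cpl-1 (T03E6.7), was also read by a pair of probe sets that can bind related transcripts. On 173990_s_at its signals were 15339, 19397 and 14192 in atfs-1(et18) worms, against 13028, 22240 and 18309 in wild-type worms, with a log2 change of -0.11 ± 0.21. On 171886_x_at they were 420, 433 and 491 in the mutant, against 384, 534 and 827 in wild-type, with a change of -0.31 ± 0.27. On both probe sets the 3 mutant arrays lay within the wild-type range.

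The gene cpr-2 (F36D3.9) gave no usable level. Its signals of 72.1, 45.4 and 68.2 in atfs-1(et18) worms and of 62.8, 67.5 and 61.0 in wild-type worms were not above the 40th percentile of their array on any of the 6 arrays, where that percentile lay between 62.8 and 80.7. It was therefore not tested and no fold is given.

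For the 8 tested probe sets that did not pass, the 95% intervals of the log2 change ran from -0.92 at the lowest bound to 0.86 at the highest. Each of the 8 intervals lay inside a 2-fold change in either direction. Values inside an interval could not be told apart with 3 arrays per genotype.

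Within a genotype the family also varied from array to array. Among wild-type arrays, the 6 probe sets of cpl-1, cpr-3, cpr-6 and cpr-9 were all low on replicate 1, at 0.42 to 0.55 below their wild-type mean on the log2 scale, and all above it on replicate 3, by 0.07 to 0.58. The probe sets of cpr-5 and cpr-8 deviated less there, by -0.02 and 0.11 on replicate 1 and by 0.04 and -0.05 on replicate 3. The values of cpr-1 on the same arrays were 0.09 and 0.08 and those of cpr-4 were -0.13 and 0.33.

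Tissue markers moved with these arrays. The mean of 15 probe sets of 11 intestine markers was 0.35 below the wild-type mean on wild-type replicate 1 and 0.33 above it on replicate 3. Germline markers went the other way, 0.63 above on replicate 1 and 0.46 below on replicate 3. Aspartyl proteases, several of which act in the lysosome as cathepsins do, were 0.40 below on replicate 1 and 0.27 above on replicate 3. The part of tissue make-up in the spread of the cathepsins was not tested.

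**Figure D3:**
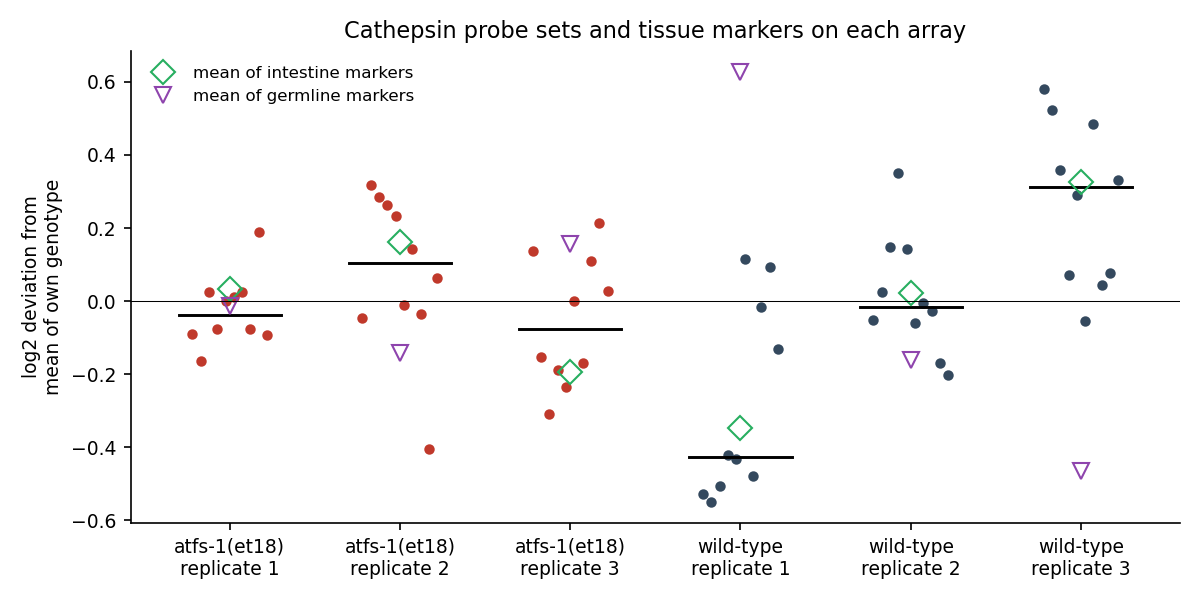
Log2 deviation of each array from the mean of its own genotype for the 10 tested cathepsin probe sets (filled points, atfs-1(et18) red and wild-type dark blue, bar at the median), with the mean of the intestine markers (green diamonds) and of the germline markers (purple triangles). On wild-type replicate 1 the cathepsin median is -0.43 with intestine markers at -0.35 and germline markers at 0.63, and on wild-type replicate 3 the cathepsin median is 0.31.

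The intestine markers were also compared between genotypes. Their summed signal was 32308 to 43458 in atfs-1(et18) worms and 36607 to 57038 in wild-type worms, and their mean log2 level was 10.31 ± 0.18 in the mutant and 10.53 ± 0.34 in wild-type (SD, n = 3 each), a difference of -0.22. None of the 15 probe sets was at 0. When cpr-1 was expressed relative to the intestine mean of its own array, its log2 value was 0.99, 0.27 and 1.24 in atfs-1(et18) worms, against 3.82, 3.19 and 3.13 in wild-type worms. For cpr-4 these values were 0.87, 0.90 and 1.22 in the mutant, against 3.69, 3.24 and 3.48 in wild-type. The differences were then -2.55 for cpr-1 and -2.47 for cpr-4. This scale was added after seeing the data and uses the genes that chose the family, so it is a description, and a part of intestine content in the falls was not tested.

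Of the 15 intestine probe sets, 2 fell and 0 rose. The peptide transporter gene pept-1, which takes up the di- and tripeptides that gut proteases release, had signals of 1943, 1998 and 1513 in atfs-1(et18) worms, against 3479, 4665 and 4445 in wild-type worms. It fell by 1.21 on the log2 scale (SE 0.17, limma adjusted p = 0.00697), with all 3 mutant arrays below all wild-type arrays. The intestinal TRP channel gene gtl-1 fell by 0.88 (SE 0.19, limma adjusted p = 0.0391), a call lost in 7 of 16 alternatives. The GATA factor gene elt-2, the main regulator of intestinal genes, had log2 changes of -0.04 ± 0.24 and -0.04 ± 0.19 on its probe sets (limma adjusted p = 0.951 and 0.948).

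The other proteases and their inhibitors were compared next, from lists drawn up for protease class. Of 36 probe sets tested of 31 genes (other papain-like proteases with legumain, cystatins, aspartyl proteases and serine carboxypeptidases), 1 passed the threshold as higher and 0 as lower, against 9 at an unadjusted p under 0.05. The one that passed was asp-8, a cathepsin D-like aspartyl protease gene. Its signals were 5092, 5247 and 3428 in atfs-1(et18) worms, against 849, 1768 and 2389 in wild-type worms, with no overlap. The rise was 1.56 ± 0.35 on the log2 scale (limma adjusted p = 0.0479), and the call was lost in 8 of 17 alternatives. The 12 aspartyl protease probe sets had a median log2 change of -0.16.

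Among 11 probe sets of other papain-like proteases and legumain, none passed (limma, 4 at an unadjusted p under 0.05), and their median log2 change was -0.11. The legumain gene lgmn-1, whose product cleaves after asparagine and is known in mammals to process cathepsin precursors, came closest. It had signals of 3561, 4348 and 3949 in atfs-1(et18) worms, against 1195, 2288 and 2300 in wild-type worms, with no overlap. Its log2 change was 1.09 ± 0.25 (limma adjusted p = 0.0519), which passed in 8 of 17 alternatives. The papain-like gene F32H5.1 had a change of -0.45 ± 0.17 (limma adjusted p = 0.229).

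Of the cystatin genes, cpi-2 had log2 changes of 0.30 ± 0.15 on its brighter probe set and 0.68 ± 0.27 on its dimmer one (limma adjusted p = 0.351 and 0.241), and cpi-1 had a change of -0.20 ± 0.17 (limma adjusted p = 0.610). None of the 3 passed (limma, 1 at an unadjusted p under 0.05). Of 10 serine carboxypeptidase probe sets none passed (limma, 2 at an unadjusted p under 0.05). The smallest p-values there were those of pcp-1 (-0.73 ± 0.20) and pcp-3 (-0.98 ± 0.26), prolylcarboxypeptidase-like genes (limma adjusted p = 0.0901 and 0.0913), both lower in 3 of 3 mutant arrays than in any wild-type array.

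Lysosomal genes outside the protease lists fell in 2 of 25 probe sets tested and rose in 0, with a median log2 change of -0.19. The DNase II gene nuc-1 had signals of 1925, 1690 and 1307 in atfs-1(et18) worms, against 2622, 4396 and 4245 in wild-type worms, and fell by 1.17 (SE 0.23, limma adjusted p = 0.0281). The gene cln-3.3, a homologue of the human Batten disease gene CLN3, fell by 1.49 (SE 0.34, limma adjusted p = 0.0469), with each mutant array below each wild-type array. Each of these calls was lost in 8 of 17 alternatives.

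Subunits of the V-ATPase, the proton pump that acidifies the lysosome, fell in 1 of 26 probe sets and rose in 0 (limma, 9 at an unadjusted p under 0.05). A negative change was seen in 23 of the 26, and the median was -0.31, beside -0.008 over all probe sets tested. The 26 sets measure 19 genes, so the 23 are not separate genes. Genotypes did not overlap for 11 of the 26, beside 23.3% of all probe sets tested. Marker lists of other tissues leaned as well, in both directions. Medians were -0.32 for 11 neuron and -0.21 for 8 muscle probe sets, with no overlap for 7 and 4 of them. They were 0.11 for 10 germline and 0.55 for 7 oocyte probe sets, with no overlap for 0 of either. The share of negative changes over all probe sets is not given, so nothing particular to the V-ATPase is read from these counts. The subunit gene vha-16 had signals of 2488, 2466 and 2376 in atfs-1(et18) worms, against 4050, 4100 and 4139 in wild-type worms. It fell by 0.75 (SE 0.12, limma adjusted p = 0.0121), a call lost in 4 of 16 alternatives.

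Among transcription factors known from the intestine, the lysosome or the mitochondrial stress response, 0 of 14 probe sets passed (limma, 3 at an unadjusted p under 0.05). The log2 change was 1.07 ± 0.30 for pqm-1 (limma adjusted p = 0.107). For hlh-30, the TFEB homologue that governs lysosomal genes, it was 0.72 ± 0.24 on one probe set (limma adjusted p = 0.162) and -0.06 ± 0.19 and -0.36 ± 0.40 on its others.

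Yolk proteins are substrates of cathepsin L in the worm. Of 8 tested probe sets of yolk genes and the yolk receptor gene rme-2, 7 fell, with a median log2 change of -2.37 over the 8. The set of rme-2 did not pass (0.54 ± 0.32, limma adjusted p = 0.437). The largest changes per gene were -4.37 for vit-5, -3.95 for vit-4, -2.50 for vit-6 and -2.25 for vit-2. In the mutant, vit-5 and vit-2 were each above the 40th percentile on only 2 of 3 arrays, so the sizes of their falls are uncertain. With an offset of 64 the changes were -3.43 for vit-5 and -1.74 for vit-2. Several genes have more than 1 probe set. The sets of vit-4 and vit-5 and 1 of vit-6 carry the suffix of sets that can bind several transcripts. The call of vit-2 was lost in 3 of 17 alternatives (limma adjusted p up to 0.0900). Among the yolk genes that fell, vit-1 had signals of 197, 165 and 244 in atfs-1(et18) worms, against 704, 893 and 975 in wild-type worms. The changes of cpl-1, -0.11 and -0.31, stand beside these falls.

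**Figure D4:**
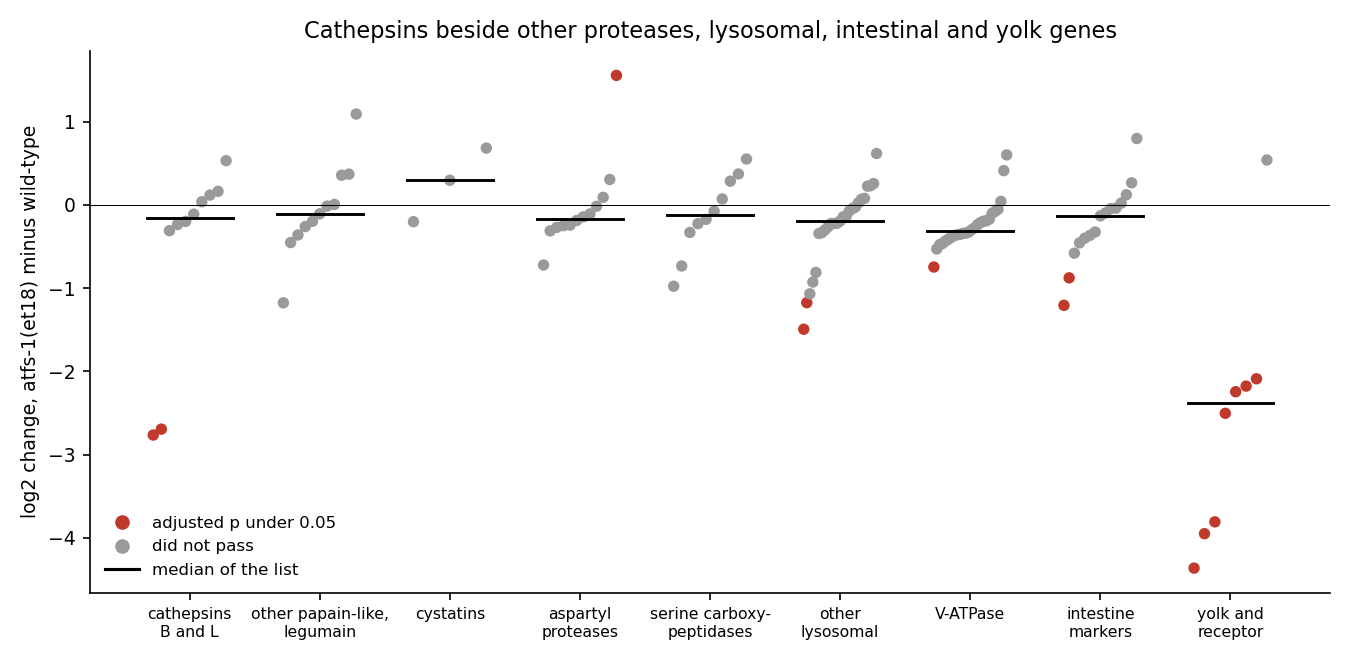
Log2 change, atfs-1(et18) minus wild-type, of each tested probe set in the cathepsin family and 8 other gene lists, in red where the limma adjusted p was under 0.05 and grey otherwise, with a bar at the median. The cathepsins divide into cpr-1 and cpr-4 at -2.77 and -2.69 and the other 8 probe sets between -0.31 and 0.53. In the last list the yolk genes lie at -4.37 to -2.09 and the yolk receptor gene rme-2 at 0.54.

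Of the 9 cathepsin genes, 8 lie on chromosome V and cpr-6 on chromosome X in assembly WBcel235. The genes cpr-5 and cpr-8 are direct neighbours, with 0 protein-coding genes between them, and cpr-1 and cpr-9 are separated by 8 protein-coding genes. The log2 change was -2.77 for cpr-1 and -0.20 for cpr-9. Of the nearest protein-coding genes on either side of the 9 members, 6 that are no members were tested and none passed (limma, 0 at an unadjusted p under 0.05), with log2 changes between -0.20 and 0.31. These included both neighbours of cpr-1, F58H1.7 (-0.20 ± 0.26) and the macrophage migration inhibitory factor-like gene mif-2 (0.31 ± 0.16), and 1 neighbour of cpr-4, gon-14 (0.28 ± 0.19).

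Across the 6 arrays the log2 signals of cpr-1 and cpr-4 followed each other with a Pearson r of 0.980, a value that rests on the separation of the genotypes. Among 6574 other brighter probe sets with 1 symbol, the 5 profiles most like cpr-4 were those of the saposin-like gene spp-4 (r = 0.998), tpan-1, vha-16, B0454.5 and ric-4, the SNAP-25 homologue of neurons (r = 0.990). Those most like cpr-1 were ric-4 (r = 0.996), the ERK kinase gene mpk-1, the GTPase gene ral-1, cal-5 and abhd-3.2 (r = 0.991). The measure ignores size: spp-4 had mean signals of 1330 in atfs-1(et18) and 3239 in wild-type worms (log2 change -1.28 ± 0.14). For ric-4 they were 813 and 1070 (-0.40 ± 0.14), which did not pass (limma adjusted p = 0.184). The log2 changes were -0.29 ± 0.14 for mpk-1, -0.30 ± 0.15 for ral-1, -0.75 ± 0.14 for cal-5 and -1.17 ± 0.16 for abhd-3.2. All points share the arrays and the division by genotype.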

How the data were processed

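RNA of 6 whole-worm samples was measured on Affymetrix C. elegans arrays. The deposited intensity values are linear MAS5 signals, per the submitters' processing notes and the sources used here give neither its version nor detection calls. The mean trimmed by 2% at both ends was 500.2 for every array, so each had been scaled before deposit.

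Log2 values were taken with no offset. Without the 77 control probe sets, 13792 of 22548, those above the 40th percentile of their array on 3 or more arrays, were tested with limma 3.58.1 in R 4.3.3 (intensity trend, two-sided, Benjamini-Hochberg over all tested, threshold 0.05), which was also tested on simulated data. Names came from the platform annotation, updated with assembly WBcel235 (20766 probe sets with 1 symbol, 887 with several, 895 with none). F57F5.1 of the papain-like list is cpr-9 and was counted only as a member. Members and lists were chosen with earlier results of these data known. From each list up to 4 genes past the threshold were picked for naming, or the 2 with the smallest p. The picks of the marker lists other than intestine are left out, except where another comparison named them. Neighbouring genes and the level relative to intestine markers were added after seeing the data, as were vit-1, elt-2 and the further cpi-2 and hlh-30 probe sets. The 17 alternatives are other scalings, offsets, filters and variance priors, array weights, a replicate block, probe sets binding several transcripts left out, and each array left out. The number of arrays limits precision.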

Additional observations from a re-analysis of the deposited data

How the results depend on the processing

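The count of cathepsin probe sets past the threshold as lower was 2 in all 17 alternatives. These are cpr-1 and cpr-4, whose values chose the family, so this is a description and no support. The count as higher was 0 in 16 of them and 1 (cpr-8) with array weights. The median log2 change of the cathepsins, -0.15, was 0.048 with quantile normalization and ran from -0.38 (without wild-type replicate 1) to 0.012 (without wild-type replicate 3) when 1 array was left out. The count of other proteases called higher, 1, was 3 with quantile normalization or array weights, 2 with an offset of 16 or 64, a robust prior or the filter at the 60th percentile, and 0 with median scaling, no filter or no intensity trend. It ran from 0 to 2 with 1 array left out (2 without wild-type replicate 1). Their count called lower, 0, was 3 with array weights and ran from 0 to 3 with 1 array left out (3 without wild-type replicate 1). Of all probe sets tested, 542 passed, against 1637 with array weights, 871 without wild-type replicate 1, 336 with the replicate block and 202 without atfs-1(et18) replicate 1. After removal of genotype means, same-numbered arrays correlated at 0.171, 0.175 and -0.397, and different-numbered arrays at -0.501 to 0.478. With so few arrays these values cannot show whether samples were handled in pairs. With the replicate block the cathepsin counts stayed at 2 and 0. Leaving out 1 array leaves 2 against 3, and no detection calls were used, so dim probe sets such as that of cpr-2 rest on the percentile alone.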
